A study of Homo sapiens with 4 samples.

Results

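Antisense RNAs named after the gene they lie against were followed through the knockdown of NUP153 in TE5 cells, each beside the gene that gives it its name. A row of the count table was taken as a member when its symbol ends in -AS1, -AS2 or -AS3 and its counts over the 4 libraries sum to 100 or more. Of 56657 rows, 1233 carry such a symbol, 372 of these were at 0 in every library, 606 had 1 to 99 counts and 255 were members (240 ending in -AS1, 12 in -AS2 and 3 in -AS3). The members were thus chosen by their summed counts over all libraries, so the level of the list as a whole is set by the rule, and its lower edge is described at the end without a test. The difference between the groups was not part of the rule. The sense partner of a member is the row whose symbol stands before the dash. It exists for 245 members (242 different genes) and is missing for 10, among them the 7 HOX cluster antisense RNAs, which are named after a cluster and not after a gene.

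Antisense transcripts are made from the strand opposite to another gene. They are mostly non-coding, spliced and polyadenylated, and are usually far less abundant than the gene they face. Some arise from a shared promoter region and run away from the neighbouring gene, while others run across its exons, and single members are known to act on the transcription, splicing or stability of their partner or on microRNAs. NUP153, the gene that was knocked down, encodes a protein of the nuclear basket of the nuclear pore.

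TE5 is an established cell line of esophageal squamous cell carcinoma. The shNUP153 group (labelled genotype NUP153 knockdown, 2 libraries) and the shControl group (labelled genotype WT, 2 libraries) both received a short hairpin RNA by lentivirus, were selected with puromycin and were harvested at day 7. The shNUP153 libraries carry the marks g1 and g2 in the labels, which do not say whether these are different hairpins. In these bulk libraries, fewer cells of a type and less RNA per cell cannot be told apart.

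The counts summed to 25247932 and 23396626 in the shNUP153 libraries and to 22606593 and 27396268 in the shControl libraries, so a sum of 100 counts is near a mean of 1 CPM (counts scaled to library size). All levels below are CPM with TMM scaling, and a log2 fold change is shNUP153 over shControl. NUP153 itself was at 67.9 and 81.9 CPM in the shNUP153 libraries and at 149 and 142 CPM in the shControl libraries (log2 fold change -0.96, SE 0.06, adjusted p = 1.05e-14). Of the squamous markers, TP63 was at 231 to 250 CPM over the 4 libraries, while KRT14 stayed below 0.6 CPM. The 10 squamous markers summed to 3776 to 3822 CPM in shNUP153 libraries and 3250 to 3334 CPM in shControl libraries. Of 9 tested, KRT17 (0.76) and PERP (0.21) rose and KRT5 (-0.68), SOX2 (-0.34) and KRT6A (-0.23) fell. Summed over 7 columnar, 5 fibroblast and 5 leukocyte markers, levels were 21.1 to 23.6, 0.54 to 1.10 and 0.15 to 0.21 CPM in shNUP153 libraries. In shControl libraries they were 21.2 to 24.2, 0.45 to 0.68 and 0.14 to 0.19 CPM. CDX1, TFF3, REG4, DCN and LUM were at 0. CDX2, at 17.2 to 20.2 CPM over the 4 libraries, made up most of the columnar sum. The 3 endothelial markers summed to 24.0 to 25.1 CPM in shNUP153 libraries and 11.1 to 12.2 CPM in shControl libraries, nearly all of it CDH5, while PECAM1 was at 0 in both shControl libraries and below 0.2 CPM in the shNUP153 libraries. The part of these marker shifts in the results below was not tested.

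Of the 255 antisense RNAs, all of which passed the filter on low counts, 19 rose and 15 fell at an adjusted p under 0.05 (edgeR's quasi-likelihood test, Benjamini-Hochberg adjustment over 16817 genes), and 221 did not pass the test. These 34 are 13.3% of the members, where 32.4% of all tested genes passed, 15.0% upward and 17.4% downward. With total-count scaling in place of TMM, 28 members rose and 11 fell, and 3573 of all genes rose and 2114 fell. Without shNUP153 replicate 1 the members called were 14, without shNUP153 replicate 2 they were 18, and DESeq2 called 14. At least 1.5-fold changes that passed the test were found for 8 antisense RNAs that rose and 5 that fell, or 13 of 255, where 7.53% of all genes met both limits. The median log2 fold change was 0.03 over the members (quartiles -0.18 and 0.24) and 0.005 over all tested genes (quartiles -0.18 and 0.21). The most extreme members were HIF1A-AS2 at 1.14 and ATP2A1-AS1 at -0.66, and 158 members lay within 1.2-fold of no change. At an unadjusted p under 0.05 there were 56 members (22.0%), against 41.2% of all genes.

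**Figure D1:**
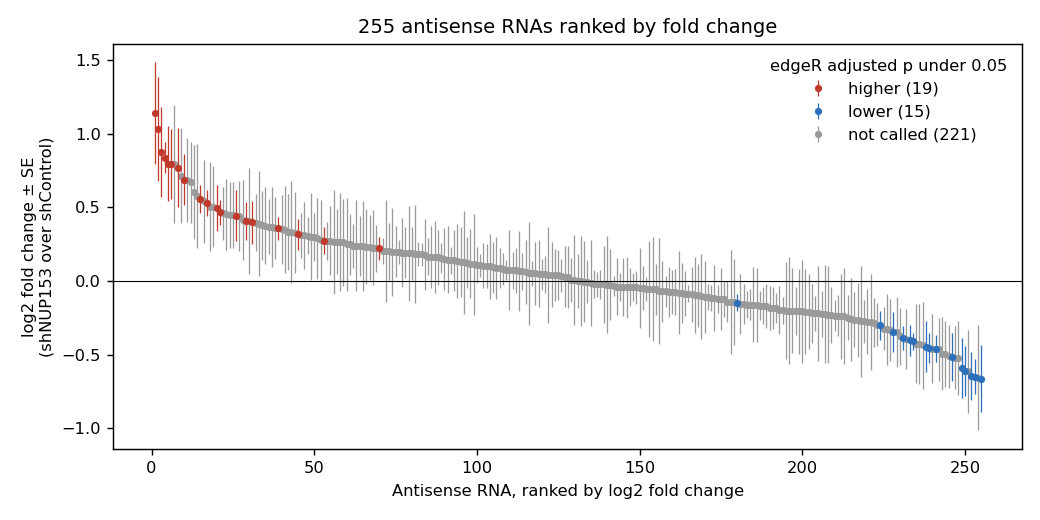
Log2 fold change (shNUP153 over shControl) of the 255 antisense RNAs in rank order, one point per RNA with its SE, with those that passed the test drawn in colour. The 19 that rose and 15 that fell lie towards the ends of a curve whose median is 0.03.

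Calls were more frequent at higher levels. The members had a median of 3.09 CPM (1.01 to 80.0), against 16.3 CPM for all tested genes, and 24 of them reached 20 CPM. At 20 CPM or more, 9 of the 24 antisense RNAs passed the test (37.5%), against 46.9% of all genes in that range. Between 5 and 20 CPM 13 of 68 passed (19.1%, against 31.0%), between 2 and 5 CPM 8 of 85 (9.41%, against 20.1%), and between 1 and 2 CPM 4 of 78 (5.13%, against 12.4%). In each of these ranges the share of antisense RNAs called was below that of all genes, a description with no test. The top range has no upper limit. Its members reached 80.0 CPM, while other genes in it lay far higher, so levels are not matched there. Long intergenic RNAs with LINC symbols and at least 100 counts, with a like median level of 3.06 CPM, had 30 higher and 9 lower of 175 (22.3%).

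**Figure D2:**
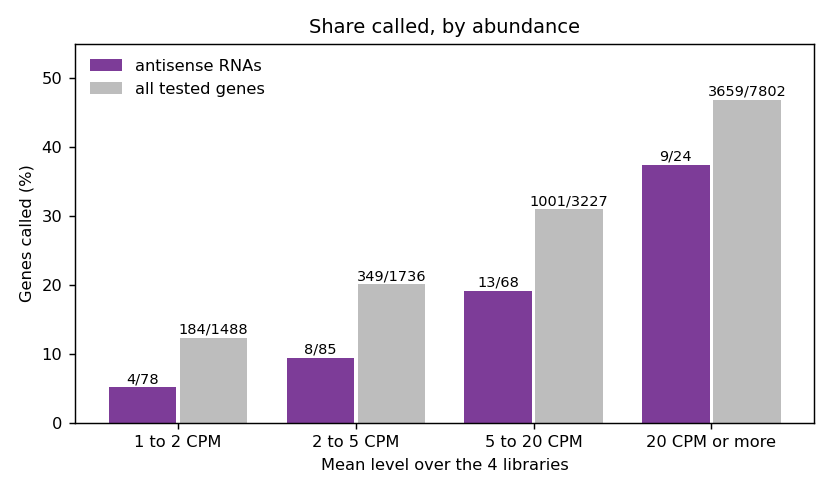
Share of genes called (percent, adjusted p under 0.05) among the antisense RNAs and among all tested genes, in 4 ranges of mean CPM. The share climbs with the level in both, and the antisense RNAs sit lower in each range, from 5.13% to 37.5%, against 12.4% to 46.9% for all genes. The top range has no upper limit, so levels are not matched in it.

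Of the 34 calls, 25 were lost when 1 of the libraries was left out. The 9 antisense RNAs whose call held in all 10 alternative fits, which included each library left out in turn, averaged 10.8 CPM or more, and 5 of them rose. DESeq2 called these and FUT8-AS1, LOXL1-AS1, TGFB2-AS1, TMEM161B-AS1 and TMPO-AS1, gave HIF1A-AS2 no adjusted p, and called no other member. DLGAP1-AS2 rose most of the 9. It was at 17.0 and 17.9 CPM in shNUP153 libraries, against 9.15 and 10.3 CPM in shControl libraries, a 1.79-fold rise (log2 fold change 0.84, SE 0.11, adjusted p = 9.21e-08). Its partner DLGAP1, a scaffold protein of the postsynaptic density, was at 0.31 and 0.30 CPM in shNUP153 libraries and 0.14 and 0.19 CPM in shControl libraries, too low to be tested, so the antisense RNA was the abundant transcript of the locus. DLGAP1-AS1, a separate antisense RNA of the same gene, stood at 9.83 and 9.27 CPM in shNUP153 libraries and 7.39 and 7.05 CPM in shControl libraries (0.41, adjusted p = 0.0129). This call did not hold without shNUP153 replicate 1 (adjusted p = 0.123) or shControl replicate 2 (0.0661).

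CCDC18-AS1 was at 20.9 and 19.6 CPM in shNUP153 libraries, against 13.3 and 14.2 CPM in shControl libraries (0.55, SE 0.10, adjusted p = 2.07e-05). CCDC18, its coiled-coil partner, did not pass the test at a log2 fold change of 0.01, nor did DR1, a repressor of transcription on its other side, at 0.07. In GENCODE 29 (GRCh38) the exons of CCDC18-AS1 overlap CCDC18 by 72 bp and DR1 by 138 bp. SLC9A3-AS1 was at 27.1 and 26.8 CPM in shNUP153 libraries and 19.1 and 19.8 CPM in shControl libraries (0.47, SE 0.08, adjusted p = 3.94e-05). Its partner SLC9A3, a sodium-hydrogen exchanger of epithelia, stood at 0.41 with an adjusted p of 0.0985, and the exons of the pair share 830 bp. GABPB1-AS1 was at 36.7 and 36.2 CPM in shNUP153 libraries and 30.1 and 27.0 CPM in shControl libraries (0.36, SE 0.08, adjusted p = 0.000381), while GABPB1, a subunit of the ETS-family factor GABP, stood at 0.10 with an adjusted p of 0.303.

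The fifth of these rises was NOP14-AS1, with 34.9 and 28.7 CPM in shNUP153 libraries, against 22.9 and 21.4 CPM in shControl libraries (0.53, SE 0.09, adjusted p = 1.1e-05). NOP14, which acts in the making of the small ribosomal subunit, went the other way and is described with the opposed pairs.

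Of the 9, FGD5-AS1, SBF2-AS1, PRKRA-AS1 and NNT-AS1 fell. FGD5-AS1, the most abundant member, had 66.3 and 71.1 CPM in shNUP153 libraries, against 92.1 and 90.6 CPM in shControl libraries (-0.41, SE 0.06, adjusted p = 5.44e-07). FGD5, an exchange factor for CDC42 known from endothelial cells, did not exceed 0.2 CPM in any library and was not tested. The exons of FGD5-AS1 also overlap NR2C2, a nuclear receptor gene, by 155 bp, and NR2C2 fell as well (-0.25, adjusted p = 0.0114). SBF2-AS1 had 9.06 and 7.67 CPM in shNUP153 libraries, against 12.5 and 13.8 CPM in shControl libraries, a 1.57-fold fall (-0.65, SE 0.12, adjusted p = 4.46e-05). PRKRA-AS1 had 18.9 and 18.7 CPM in shNUP153 libraries, against 23.8 and 27.7 CPM in shControl libraries (-0.46, SE 0.09, adjusted p = 0.000107). PRKRA, an activator of the kinase PKR and a partner of Dicer, stood at 0.04 with an adjusted p of 0.737. NNT-AS1 had 22.9 and 22.3 CPM in shNUP153 libraries and 29.3 and 29.7 CPM in shControl libraries (-0.39, SE 0.08, adjusted p = 0.000271). In each of the 9 RNAs both shNUP153 libraries lay on one side of both shControl libraries, which was so for 132 of the 255 members (51.8%) and for 64.4% of all tested genes.

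**Figure D3:**
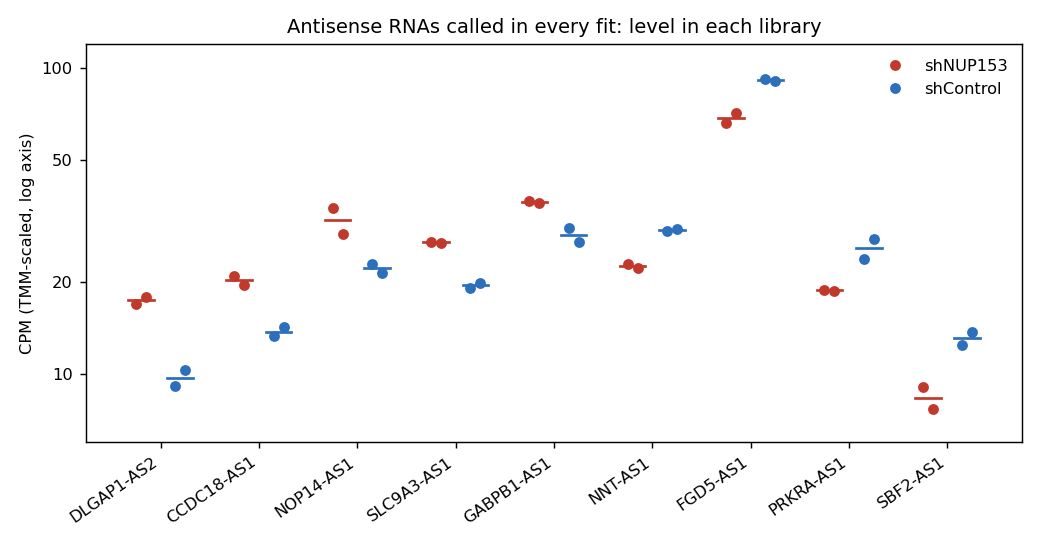
CPM in each of the 4 libraries (log axis) for the 9 antisense RNAs called in every alternative fit, shNUP153 left of shControl, one point per library and a bar at the group mean. For each RNA the groups do not overlap, from FGD5-AS1 at 66.3 to 92.1 CPM down to SBF2-AS1 at 7.67 to 13.8 CPM.

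The largest rises by fold were in scarce RNAs whose calls were lost when a library was left out, which also leaves fewer libraries for the test. HIF1A-AS2 had 42 and 37 counts (1.62 and 1.56 CPM) in shNUP153 libraries, against 18 and 17 counts (0.811 and 0.638 CPM) in shControl libraries, a 2.2-fold rise (1.14, SE 0.34, adjusted p = 0.00956). The call was lost without either shNUP153 library (0.0914 and 0.0624) and without shControl replicate 2 (0.0822). PAXBP1-AS1 stood at 1.03 (adjusted p = 0.0222), with 1.97 and 1.35 CPM in shNUP153 libraries and 0.496 and 1.09 CPM in shControl libraries. SEC24B-AS1 stood at 0.88 (adjusted p = 0.0254), with 2.35 and 1.60 CPM in shNUP153 libraries and 0.811 and 1.31 CPM in shControl libraries. For both, the call was lost without replicate 1 of either group, with adjusted p up to 0.334 for PAXBP1-AS1 and 0.377 for SEC24B-AS1. Their partners PAXBP1, a protein that binds PAX3 and PAX7, and SEC24B, part of the COPII vesicle coat, did not pass the test at 0.12 and 0.06.

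OR2A1-AS1 had 2.89 and 2.61 CPM in shNUP153 libraries, against 1.94 and 1.28 CPM in shControl libraries (0.80, adjusted p = 0.0146). It was lost without either shNUP153 library or shControl replicate 2 (adjusted p up to 0.206). OR2A1, an olfactory receptor gene, had counts in 1 shControl library alone. DNAJC27-AS1 had 2.12 and 2.36 CPM in shNUP153 libraries, against 1.26 and 1.35 CPM in shControl libraries (0.77, adjusted p = 0.0255), and was lost without any 1 of the 4 libraries (adjusted p 0.0652 to 0.157). Smaller rises were those of SH3PXD2A-AS1 (0.44), TTC28-AS1 (0.40), ADIRF-AS1 (0.27) and NUTM2A-AS1 (0.22), the last at 30.1 and 29.4 CPM in shNUP153 libraries and 25.4 and 25.7 CPM in shControl libraries. The highest adjusted p of these 4 with a library left out was 0.196, 0.257, 0.198 and 0.208, in that order, and 3 or more libraries each ended the call of TTC28-AS1, SH3PXD2A-AS1, ADIRF-AS1 and NUTM2A-AS1 when left out. None of their partners passed the test, and ADIRF, a regulator of adipogenesis, was at 0 in all libraries. Of the 998 exon bases of ADIRF, 917 are overlapped by ADIRF-AS1, and reads from them cannot be told apart. The exons of TTC28-AS1 also overlap PITPNB, a phosphatidylinositol transfer protein gene that fell (-0.16), by 156 bp.

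Among the falls with no fall of the partner, ATP2A1-AS1 had 2.16 and 1.73 CPM in shNUP153 libraries, against 3.11 and 3.08 CPM in shControl libraries (-0.66, adjusted p = 0.0237). Its partner ATP2A1, a calcium pump of the sarcoplasmic reticulum, stood at 0.11 and did not pass the test. The call of ATP2A1-AS1 was lost without shNUP153 replicate 2 (0.186), shControl replicate 1 (0.0515) or shControl replicate 2 (0.0582). TMEM161B-AS1 had 4.51 and 3.58 CPM in shNUP153 libraries, against 6.22 and 6.49 CPM in shControl libraries (-0.65, adjusted p = 0.00228), and was lost without shNUP153 replicate 2 (0.0657). TMEM161B, its membrane protein partner, stood at 0.04. FBXL19-AS1 had 3.93 and 3.67 CPM in shNUP153 libraries, against 5.45 and 4.95 CPM in shControl libraries (-0.45, adjusted p = 0.0448). FBXL19, an F-box protein that binds CpG-rich DNA, stood at 0.02. ZEB1-AS1 had 6.75 and 6.41 CPM in shNUP153 libraries, against 8.16 and 8.55 CPM in shControl libraries (-0.35, adjusted p = 0.0444). ZEB1, a repressor of epithelial genes, was at 0.32 to 0.51 CPM and was not tested. The calls of FBXL19-AS1 and ZEB1-AS1 were lost without 3 of the libraries each (adjusted p up to 0.188 and 0.198) and under total-count scaling (0.0872 and 0.107).

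The sense partners were read from the same fit. Of 242 partner genes 230 were tested, and 47 rose and 45 fell (40.0%, against 32.4% of all genes). Their median level was 30.2 CPM and their median log2 fold change 0.01. All tested genes had a median of 16.3 CPM, and 46.9% of those at 20 CPM or more passed. With total-count scaling 63 partners rose and 34 fell. Both rows were tested in 232 pairs. Both passed in 15 of them, and 10 of these moved the same way and 5 the opposite way. In 44 pairs the partner rose and in 33 it fell while the antisense RNA did not pass the test, and in 127 neither passed. Of the 34 antisense RNAs called, 28 had a tested partner, and for 13 of these the partner did not pass. Across the 232 pairs the log2 fold changes of antisense RNA and partner had a Pearson r of 0.26 and a Spearman rho of 0.25, and 146 pairs had the same sign. Without the filter on low counts r was 0.092 over 243 pairs. The same-direction pairs with both rows called were 3 without shNUP153 replicate 1, 4 without shNUP153 replicate 2 and 5 in DESeq2, and the opposed pairs were 0 in each of these and 1 without shControl replicate 2. The values of a pair come from the same libraries, and no source used here gives the strand setting of the counting, so reads from overlapping exons of a pair cannot be told apart.

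**Figure D4:**
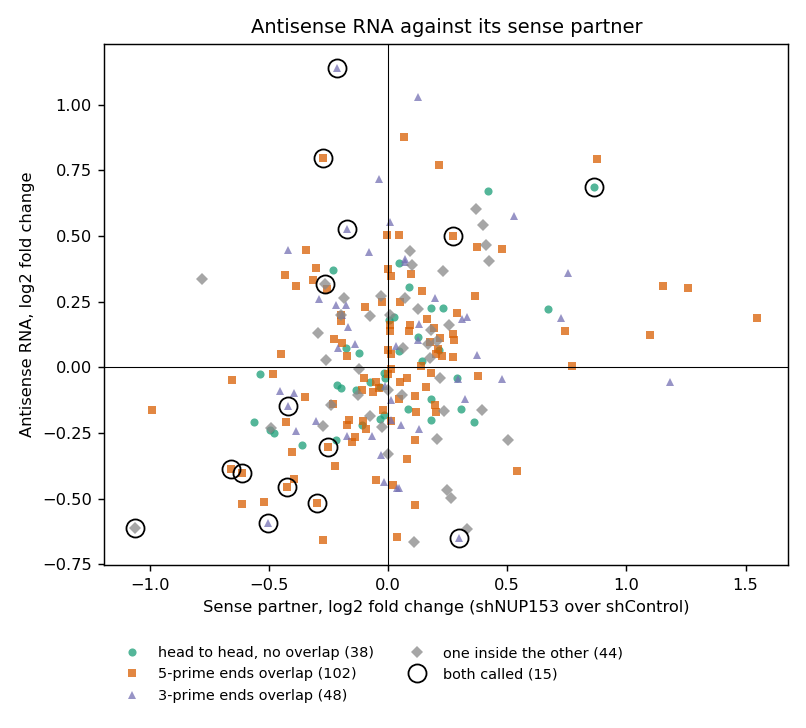
Log2 fold change (shNUP153 over shControl) of the antisense RNA against that of its sense partner, one point per pair over 232 pairs, with colours and shapes for the layout of the genes. Points are spread around both axes with Pearson r 0.26, and the 15 pairs with both rows called are marked.

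In the pairs that moved together, 2 went up and 8 went down. TGFB2, a cytokine of the transforming growth factor beta family, was at 49.1 and 48.3 CPM in shNUP153 libraries, against 28.4 and 25.3 CPM in shControl libraries (0.86, adjusted p = 1.47e-11). TGFB2-AS1 was at 5.74 and 6.53 CPM in shNUP153 libraries, against 4.42 and 3.26 CPM in shControl libraries (0.69, SE 0.17, adjusted p = 0.00213). The call of TGFB2-AS1 was lost without shNUP153 replicate 2 (0.0537) and without shControl replicate 2 (0.0591). In GENCODE 29 these genes lie head to head with their starts 557 bp apart and share no exon bases. In RefSeq, by contrast, the start of TGFB2-AS1 lies 342 bp downstream of that of TGFB2, so that the genes overlap at their starts, and the layout of this pair depends on the annotation. UCKL1, a uridine-cytidine kinase-like protein, rose by 0.27 (adjusted p = 0.00086), and UCKL1-AS1 had 6.32 and 6.36 CPM in shNUP153 libraries and 4.69 and 4.31 CPM in shControl libraries (0.50, adjusted p = 0.0131). The exons of UCKL1-AS1 overlap UCKL1 by 156 bp and ZNF512B, a zinc finger gene that rose by 0.30, by 284 bp, and its call was lost without either shNUP153 library or shControl replicate 2 (adjusted p up to 0.0774). The call of UCKL1 was lost without shNUP153 replicate 2 (0.079).

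FUT8, the enzyme that adds the core fucose to N-glycans, had the largest change of the partners in these pairs. It was at 87.3 and 90.6 CPM in shNUP153 libraries, against 188 and 183 CPM in shControl libraries (-1.06, adjusted p = 4.04e-18), and FUT8-AS1 was at 4.13 and 3.54 CPM in shNUP153 libraries, against 6.13 and 5.63 CPM in shControl libraries (-0.61, SE 0.17, adjusted p = 0.00491). The pair shares 824 bp of exon, and the call of FUT8-AS1 was lost without shNUP153 replicate 2 (0.0721). NNT, the mitochondrial transhydrogenase that makes NADPH, was at 67.2 and 70.2 CPM in shNUP153 libraries, against 110 and 107 CPM in shControl libraries (-0.66, adjusted p = 1.04e-11), and shares 217 bp of exon with NNT-AS1, given above. TMPO, which encodes the lamina-associated polypeptides of the inner nuclear membrane, was at 175 and 178 CPM in shNUP153 libraries, against 238 and 235 CPM in shControl libraries (-0.42, adjusted p = 5.88e-09). TMPO-AS1 was at 11.8 and 14.0 CPM in shNUP153 libraries, against 17.2 and 18.0 CPM in shControl libraries (-0.45, SE 0.10, adjusted p = 0.000704), shares 713 bp of exon with TMPO, and was lost without shNUP153 replicate 1 (0.0732).

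LOXL1, a cross-linker of elastin, was at 8.33 and 9.06 CPM in shNUP153 libraries, against 13.3 and 13.4 CPM in shControl libraries (-0.62, adjusted p = 5.4e-05). LOXL1-AS1 was the more abundant of that pair, with 10.9 and 11.8 CPM in shNUP153 libraries, against 15.6 and 14.5 CPM in shControl libraries (-0.40, adjusted p = 0.00315), and its call was lost without shNUP153 replicate 1 (0.0762). GAS6, the ligand of the AXL, TYRO3 and MERTK receptors, fell by 0.50 on the log2 scale (adjusted p = 0.000145), and GAS6-AS1 had 2.43 and 2.87 CPM in shNUP153 libraries and 4.51 and 3.53 CPM in shControl libraries (-0.59, adjusted p = 0.023). GAS6-AS1 was lost without replicate 1 of either group (0.196 and 0.191), and its exons also overlap TMEM255B on the same strand by 62 bp, a gene that rose (0.48). PSMB8, a catalytic subunit of the immunoproteasome, fell by 0.30 (adjusted p = 2.83e-05), and PSMB8-AS1 had 4.51 and 4.72 CPM in shNUP153 libraries and 7.48 and 5.81 CPM in shControl libraries (-0.52, adjusted p = 0.0119). The exons of PSMB8-AS1 overlap PSMB8 by 618 bp, the peptide transporter gene TAP1 (-0.40) by 456 bp and PSMB9 (-0.31) on the same strand by 174 bp. The call of PSMB8-AS1 was lost without either shNUP153 library or shControl replicate 1 (adjusted p up to 0.172).

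C1RL-AS1 had 16.4 and 15.3 CPM in shNUP153 libraries, against 21.4 and 17.9 CPM in shControl libraries (-0.30, adjusted p = 0.017), and C1RL, a protease like complement C1r, stood at -0.25 (adjusted p = 0.0103). The call of C1RL-AS1 was lost without either shNUP153 library or shControl replicate 1 (adjusted p up to 0.239) and under total-count scaling (0.0574), and that of C1RL without either shNUP153 library (0.146 and 0.0605) and under total-count scaling (0.0578). OIP5-AS1, known as cyrano in zebrafish and conserved among vertebrates, had the smallest change of any antisense RNA called, with 67.9 and 70.4 CPM in shNUP153 libraries and 77.6 and 75.7 CPM in shControl libraries (-0.15, SE 0.06, adjusted p = 0.0452). It missed the threshold in 8 of the 10 alternative fits, with adjusted p up to 0.321. OIP5, which acts in loading centromeric histone, fell by 0.42 (adjusted p = 0.0137), and lost its call without either shNUP153 library or shControl replicate 1 (adjusted p up to 0.129).

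**Figure D5:**
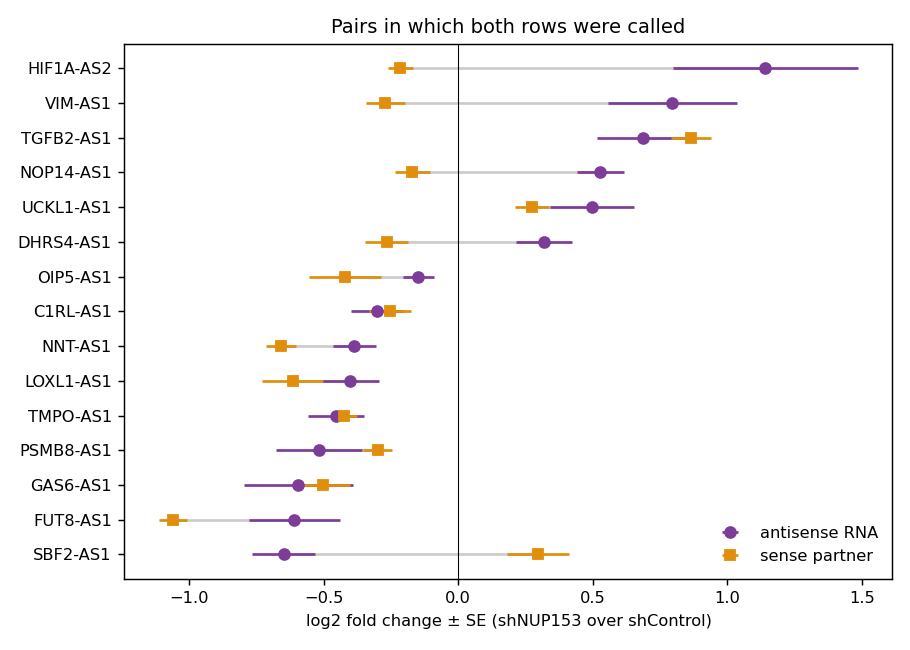
Log2 fold changes (shNUP153 over shControl, bars show the SE) of antisense RNA and sense partner in the 15 pairs in which both passed the test. In 10 pairs both lie on the same side of 0, from TGFB2-AS1 and TGFB2 (0.69 and 0.86) to FUT8-AS1 and FUT8 (-0.61 and -1.06), and in 5 they lie on opposite sides.

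In each of the 5 opposed pairs, at least 1 of the calls was lost when a library was left out. HIF1A, the oxygen-regulated subunit of the hypoxia-inducible factor, fell to 287 and 285 CPM in shNUP153 libraries, against 346 and 319 CPM in shControl libraries (-0.22, adjusted p = 0.000401), while HIF1A-AS2 rose. VIM, the intermediate filament protein vimentin, was at 33.2 and 31.8 CPM in shNUP153 libraries, against 39.7 and 38.8 CPM in shControl libraries (-0.27, adjusted p = 0.00349). VIM-AS1 was at 3.20 and 2.78 CPM in shNUP153 libraries, against 1.89 and 1.58 CPM in shControl libraries (0.80, SE 0.24, adjusted p = 0.00933). VIM-AS1 lost its call without shNUP153 replicate 1 (0.12) and shControl replicate 2 (0.0758), and VIM without shNUP153 replicate 2 (0.0868). The exons of this pair share 641 bp, and the antisense RNA rose where its overlapping partner fell.

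NOP14 was at 54.2 and 54.3 CPM in shNUP153 libraries, against 57.3 and 64.7 CPM in shControl libraries (-0.17, adjusted p = 0.0389), opposed to the rise of NOP14-AS1, with which it shares 605 bp of exon. The call of NOP14 was lost under total-count scaling (0.209) and without either shNUP153 library or shControl replicate 2 (adjusted p up to 0.416). SBF2, a relative of the myotubularin phosphatases, was at 11.9 and 11.4 CPM in shNUP153 libraries, against 9.60 and 9.38 CPM in shControl libraries (0.30, adjusted p = 0.044), opposed to the fall of SBF2-AS1, with which it shares 1495 bp. The call of SBF2 was lost without any 1 of the 4 libraries (adjusted p 0.0674 to 0.233). DHRS4-AS1 was at 14.5 and 14.5 CPM in shNUP153 libraries, against 11.3 and 11.9 CPM in shControl libraries (0.32, adjusted p = 0.0178). DHRS4, a short-chain dehydrogenase that acts on retinal, was at 23.9 and 25.3 CPM in shNUP153 libraries, against 29.9 and 29.3 CPM in shControl libraries (-0.27, adjusted p = 0.00919). DHRS4-AS1 lost its call without either shNUP153 library or shControl replicate 1 (adjusted p up to 0.108), and DHRS4 without shNUP153 replicate 1 (0.149). DHRS4 has close copies beside it, among them DHRS4L2 (-0.25), so its counts are uncertain.

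The promoter windows of 4 pairs show how these genes face each other. TGFB2, NNT and TMPO moved with their antisense RNA, and VIM moved against it. Each window runs from 250 bases before to 50 bases after the gene's start in RefSeq (GRCh38.p14) and is written along the gene's own strand. Capitals mark matches, on either strand, to the GC box GGGCGG, the CCAAT box CCAAT, the TATA box TATAAA, the AP-1 site (TGA, any base, TCA) or an interferon-type element (a pair of TTTC tetramers 2 bases apart).
TGFB2-AS1: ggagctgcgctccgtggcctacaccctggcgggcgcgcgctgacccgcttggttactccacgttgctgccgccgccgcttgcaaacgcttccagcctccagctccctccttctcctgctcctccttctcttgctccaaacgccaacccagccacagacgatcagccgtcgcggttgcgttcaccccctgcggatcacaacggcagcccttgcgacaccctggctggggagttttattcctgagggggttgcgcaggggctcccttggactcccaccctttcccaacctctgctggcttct
TGFB2: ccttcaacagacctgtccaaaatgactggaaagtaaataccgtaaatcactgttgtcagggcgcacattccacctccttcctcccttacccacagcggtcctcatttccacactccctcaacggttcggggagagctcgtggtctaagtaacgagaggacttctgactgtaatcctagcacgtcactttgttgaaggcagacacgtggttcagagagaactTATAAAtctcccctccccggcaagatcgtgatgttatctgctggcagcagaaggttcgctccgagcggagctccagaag
NNT-AS1: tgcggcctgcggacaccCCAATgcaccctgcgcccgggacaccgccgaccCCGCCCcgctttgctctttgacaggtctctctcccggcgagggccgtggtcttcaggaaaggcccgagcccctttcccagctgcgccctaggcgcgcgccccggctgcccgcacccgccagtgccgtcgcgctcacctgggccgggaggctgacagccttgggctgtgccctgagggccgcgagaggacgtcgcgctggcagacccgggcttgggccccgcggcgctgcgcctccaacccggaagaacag
NNT: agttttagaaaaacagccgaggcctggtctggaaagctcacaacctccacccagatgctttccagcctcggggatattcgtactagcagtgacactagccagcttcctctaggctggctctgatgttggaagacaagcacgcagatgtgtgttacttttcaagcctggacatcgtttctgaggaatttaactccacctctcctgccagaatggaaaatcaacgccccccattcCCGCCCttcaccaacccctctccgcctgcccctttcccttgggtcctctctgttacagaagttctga
TMPO-AS1: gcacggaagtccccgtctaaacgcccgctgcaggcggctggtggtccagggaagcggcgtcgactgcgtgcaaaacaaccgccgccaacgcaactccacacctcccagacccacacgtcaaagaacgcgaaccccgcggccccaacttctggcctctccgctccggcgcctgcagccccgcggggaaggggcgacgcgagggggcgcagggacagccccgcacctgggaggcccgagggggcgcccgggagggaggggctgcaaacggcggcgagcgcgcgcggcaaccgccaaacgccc
TMPO: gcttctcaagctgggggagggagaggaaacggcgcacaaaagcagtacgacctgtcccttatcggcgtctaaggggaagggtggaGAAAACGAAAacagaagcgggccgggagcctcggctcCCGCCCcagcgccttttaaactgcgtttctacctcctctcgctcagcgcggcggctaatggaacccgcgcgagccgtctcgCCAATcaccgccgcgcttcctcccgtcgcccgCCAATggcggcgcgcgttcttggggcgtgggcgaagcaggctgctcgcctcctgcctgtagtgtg
VIM-AS1: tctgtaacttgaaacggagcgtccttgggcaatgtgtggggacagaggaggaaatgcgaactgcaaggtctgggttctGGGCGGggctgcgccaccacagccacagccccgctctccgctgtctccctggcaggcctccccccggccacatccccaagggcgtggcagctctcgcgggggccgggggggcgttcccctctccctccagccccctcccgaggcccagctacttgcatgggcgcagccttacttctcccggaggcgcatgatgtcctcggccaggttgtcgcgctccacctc
VIM: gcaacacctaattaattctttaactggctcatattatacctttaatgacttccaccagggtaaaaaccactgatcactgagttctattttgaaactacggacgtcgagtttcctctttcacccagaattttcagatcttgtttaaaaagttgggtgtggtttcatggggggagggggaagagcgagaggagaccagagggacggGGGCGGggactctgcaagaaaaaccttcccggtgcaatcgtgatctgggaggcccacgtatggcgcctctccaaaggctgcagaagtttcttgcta
The windows lie at chr1:218345629-218345928 for TGFB2-AS1, chr1:218345086-218345385 for TGFB2, chr5:43603181-43603480 for NNT-AS1, chr5:43602425-43602724 for NNT, chr12:98516177-98516476 for TMPO-AS1, chr12:98515323-98515622 for TMPO, chr10:17229936-17230235 for VIM-AS1 and chr10:17227991-17228290 for VIM. In each pair the antisense RNA is on the minus strand and its partner on the plus strand, and no bases are shared between the windows of a pair. The RefSeq starts are 342 bp apart for TGFB2, 555 bp for NNT, 653 bp for TMPO and 1744 bp for VIM. The TGFB2 window holds a TATA box that the TGFB2-AS1 window does not, the TMPO window holds 2 CCAAT boxes, a GC box and an interferon-type element where the TMPO-AS1 window has no match, and both windows of NNT and both of VIM hold a GC box. The NNT-AS1 window also holds a CCAAT box. A match is a string of letters and not a measured site.

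RefSeq held such a window for 175 of the 255 antisense RNAs and for 197 partners. Their median GC content was 64.3% and 65.7%, against 58.3% over all 27305 windows, with a median of 23 and 26 CpG against 14. The GC box occurred in 57.1% of the antisense windows and 65.5% of the partner windows, against 44.6% of all windows. The TATA box occurred in 4.57% and 7.11%, against 12.0% of all windows. CCAAT stood in 32.6% and 33.0% against 35.7%, the AP-1 site in 5.14% and 6.09% against 7.76%, and the interferon-type element in 2.86% and 2.03% against 3.65%. The windows of the antisense RNAs and of their partners were thus alike in being richer in GC and poorer in TATA boxes than the windows of all genes, a description with no test. The antisense RNAs were chosen by their counts, while the set of all windows was not limited to genes with counts in these libraries. Whether the windows of expressed genes as a whole differ from all windows in the same way was not tested.

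The layout of a pair, read from GENCODE 29 on GRCh38 by Ensembl ID, went with how far the values of a pair moved together. In 38 pairs, TGFB2-AS1 and TGFB2 among them, the genes lay head to head without overlap (median distance of the starts 113 bp), and the log2 fold changes of antisense RNA and partner had r 0.55 and rho 0.46, with the same sign in 29. Without TGFB2-AS1 r was 0.43 over 37 pairs. In 108 pairs the genes overlapped at their starts, with r 0.33 over the 102 tested pairs. In 51 they overlapped at their ends, with r 0.07 over 48, and in 48 one gene lay inside the other, with r 0.15 over 44. Pairs with starts within 1000 bp had r 0.39 (104 pairs), and pairs with starts farther apart had r 0.20 (128 pairs). Exon overlap did not order the pairs in this way, with r 0.25 over 159 pairs that share exon bases and 0.29 over 73 that do not. These are correlations across pairs within the same 4 libraries, and the differences between layouts were not tested.

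By layout, the antisense RNAs called were 1 of 38 in the head-to-head pairs (TGFB2-AS1, and 4 under total-count scaling), 14 of 108 where the starts overlap (6 higher, 8 lower), 10 of 51 where the ends overlap (5 and 5) and 9 of 48 where one gene lies inside the other (7 higher, 2 lower). Of the 15 pairs with both rows called, 6 of the same direction and 1 of the opposite direction overlap at their starts, and 2 of the same and 3 of the opposite direction overlap at their ends. Exons of 168 members overlap those of their partner, by a median of 251 bp, and 193 members overlap the exons of some gene on the opposite strand. All 15 members that fell have exons over their partner, as do 14 of the 19 that rose and 168 of all 245 members with a partner row. Of the 77 members without such overlap, 5 rose and 0 fell in edgeR, 2 and 0 in DESeq2, 9 and 0 under total-count scaling, and 10 and 4 at an unadjusted p under 0.05. The edgeR calls are 6.49% of these 77. Over all members 13.3% were called, and over all tested genes 32.4% (15.0% upward, 17.4% downward). Whether layout or overlap goes with the calls or their direction was not tested.

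In 4 of the pairs described next, the partner passed the test and the antisense RNA did not. RUNDC3A rose by 1.55 (adjusted p = 0.00519), with 1.5 and 0.885 CPM in shNUP153 libraries and 0.270 and 0.525 CPM in shControl libraries, while RUNDC3A-AS1 stood at 0.19. SDCBP2, the scaffold syntenin-2, was at 5.59 and 5.56 CPM in shNUP153 libraries and 2.48 and 2.70 CPM in shControl libraries (1.10, adjusted p = 1.18e-05), while SDCBP2-AS1 had 4.74 and 4.93 CPM in shNUP153 libraries and 4.10 and 4.73 CPM in shControl libraries (0.12). CRYM, a thyroid hormone binding protein, rose by 1.26 (adjusted p = 0.0143) at 1.16 and 1.22 CPM in shNUP153 libraries and 0.631 and 0.375 CPM in shControl libraries, while CRYM-AS1 stood at 0.30. The call of RUNDC3A was lost without replicate 1 of either group (0.244 and 0.0642), and that of CRYM without either shNUP153 library or shControl replicate 2 (adjusted p up to 0.185). In the other direction, MAP3K14, the NIK kinase of NF-kappaB signalling, had 53.1 and 52.7 CPM in shNUP153 libraries and 68.7 and 73.0 CPM in shControl libraries (-0.42, adjusted p = 1.04e-06), while MAP3K14-AS1 stood at 0.45 with an adjusted p of 0.124. MIF-AS1 and MIF (-0.06 and 1.18) and CBR3-AS1 and CBR3 (0.33 and -0.78) also stood far apart, at levels up to 2.53 CPM and with no row called. The antisense RNA overlaps 687 of the 1109 exon bases of MIF and 493 of the 1169 of CBR3. Reads there cannot be told apart, so the levels of these rows are uncertain. The MIF row held 11 and 10 counts in shNUP153 libraries and 2 and 7 counts in shControl libraries. Whether it holds all reads of MIF was not tested.

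The median difference over the 232 pairs, antisense minus partner, was -0.005 on the log2 scale. In 119 of the 232 pairs the log2 ratio of antisense to partner CPM did not overlap between the groups. The levels of 64.4% of all tested genes did not overlap, which is a share of single genes and not of ratios. No such share was counted for other gene pairs. Over the 232 pairs, the median log2 ratio of antisense to partner CPM was -2.73 and -2.71 in shNUP153 libraries and -2.72 and -2.54 in shControl libraries, so shControl replicate 2 stood highest. Per kilobase of exon, the antisense RNA was below its partner at a median log2 ratio of -1.79, and above it in 64 pairs.

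Among the 6 most abundant antisense RNAs, FGD5-AS1, OIP5-AS1 and GABPB1-AS1 passed the test as given above. NCBP2-AS2, which GENCODE 29 lists as protein-coding, was at 66.1 and 63.6 CPM in shNUP153 libraries and 67.5 and 70.3 CPM in shControl libraries (-0.09, adjusted p = 0.278). GATA2-AS1 was at 48.1 and 49.0 CPM in shNUP153 libraries and 51.9 and 47.6 CPM in shControl libraries (-0.03, adjusted p = 0.746), where GATA2, a zinc finger transcription factor, rose by 0.38 (adjusted p = 0.00012). PSMA3-AS1 was at 40.5 and 40.7 CPM in shNUP153 libraries and 36.7 and 40.2 CPM in shControl libraries (0.07, adjusted p = 0.464), where PSMA3, an alpha subunit of the proteasome, fell by 0.21 (adjusted p = 0.000617). MCM3AP-AS1, FOXP4-AS1, TPT1-AS1 and MAPKAPK5-AS1, often studied in tumours, stood at -0.10, 0.04, 0.01 and 0.05 and did not pass the test. Their partners MCM3AP, FOXP4, TPT1 and MAPKAPK5 did pass it, at -0.39, 0.22, 0.14 and 0.20. The calls of FOXP4, TPT1 and MAPKAPK5 were lost without shNUP153 replicate 1 (adjusted p = 0.121, 0.151 and 0.149), and those of TPT1 and MAPKAPK5 also without shNUP153 replicate 2 (0.116 and 0.11). EPB41L4A-AS1 stood at 0.03, and neither it nor EPB41L4A passed.

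Of the 7 antisense RNAs of the HOX clusters 0 passed the test in edgeR or in DESeq2, 0 had an unadjusted p under 0.05, and their lowest adjusted p was 0.602. In edgeR 13.3% of all members and 32.4% of all tested genes passed. A count of 0 of 7 does not set these RNAs apart from the other members. HOXA-AS2, the most abundant, had 13.5 and 12.2 CPM in shNUP153 libraries and 13.3 and 13.7 CPM in shControl libraries (-0.07). HOXD-AS2 had 9.06 and 9.65 CPM in shNUP153 libraries and 8.11 and 9.90 CPM in shControl libraries (0.05). The others, HOXA-AS3, HOXB-AS3, HOXC-AS1, HOXC-AS2 and HOXC-AS3, lay between 0.848 and 3.79 CPM in all libraries, with log2 fold changes of -0.23 to 0.24.

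Gene groups known to act on antisense transcripts were read from the same fit, as a list of RNA decay factors and a list of proteins that bind or process double-stranded RNA. Of 22 decay genes, 1 rose (EXOSC4, 0.29) and 5 fell (XRN1, XRN2, EXOSC9, DIS3L and MTREX), with a median log2 fold change of -0.07. These calls are 27.3% of the list, against 32.4% of all genes. Most of the decay genes averaged above 20 CPM, where 46.9% of all genes passed. EXOSC4, EXOSC9, DIS3L and MTREX each lost the call without 2 or more of the libraries (adjusted p up to 0.309, 0.274, 0.197 and 0.242), and DIS3L and MTREX also under total-count scaling (0.13 and 0.224). DESeq2 called 2 of the list lower and 0 higher. XRN1, the main cytoplasmic exonuclease of decapped RNA, had 59.3 and 55.3 CPM in shNUP153 libraries and 83.8 and 76.3 CPM in shControl libraries (-0.48), and its nuclear relative XRN2 142 and 143 CPM in shNUP153 libraries and 171 and 172 CPM in shControl libraries (-0.27). Of 17 double-stranded RNA genes, 0 rose and 7 fell in the edgeR test (among them ADAR, DROSHA, XPO5, DHX9 and STAU2), with a median of 0.02. The falls are 41.2% of the list, where 17.4% of all genes fell. Most genes of this list averaged above 20 CPM, a range in which 46.9% of all genes passed in either direction. Falls in that range were not counted apart. DESeq2 also called 0 of the list higher and 7 lower, and 2 were higher at an unadjusted p under 0.05 in edgeR. Under total-count scaling 4 rose (DICER1, AGO1, AGO3 and STAU1) and 7 fell. The call of STAU2 was lost without either shNUP153 library (0.0544 and 0.0738). ADAR, which edits adenosine to inosine in double-stranded RNA, had 629 and 581 CPM in shNUP153 libraries, against 800 and 825 CPM in shControl libraries (-0.43, SE 0.04, adjusted p = 1.45e-09). DROSHA, the nuclease that cuts microRNA hairpins out of their transcripts, had 113 and 118 CPM in shNUP153 libraries and 142 and 133 CPM in shControl libraries (-0.25).

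At the lower edge of the rule, ELOA-AS1 and MIF-AS1 entered with 101 and 103 counts over the 4 libraries. ACTN1-AS1 and GPRC5D-AS1, with 99 counts each, and H1FX-AS1, with 97, stayed just outside. Of the 606 antisense rows with 1 to 99 counts, 146 were tested, and 7 of those were higher and 4 lower. Of all tested genes 15.0% were higher and 17.4% lower.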

How the data were processed

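RNA-seq of 4 TE5 libraries was analysed from the deposited table, which lists 56657 rows by Ensembl ID and symbol. The deposited values are whole-number counts, taken as unnormalized because each library has its own total. The table calls itself FPKM, which its values do not bear out. The submitters' processing notes name kallisto, DESeq2, Bowtie2, deepTools and hg19, and neither the counting tool nor its strand setting is given in the sources used here. The log2 ratio in the authors' deposited table was not used. Genes were filtered with filterByExpr (minimum count 10, total 15) and tested with edgeR 4.0.16 (R 4.3.3), TMM scaling and the two-sided quasi-likelihood test over 16817 genes, 2 libraries against 2, at an adjusted p of 0.05. DESeq2 1.42.0 was an alternative. The fit was tested on simulated data. Nothing in the labels says that replicates were separate cultures, so p-values measure only how far these samples spread, which may be technical. Libraries of 1 group differed beyond sampling noise (chi-square per gene 3.1 and 3.58).

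Members, lists and tests were chosen with earlier results of these data known. Genes were named by rule: NUP153, the 10 largest rises and falls among members called without overlap, the 6 most abundant members, the 5 most positive and 5 most negative pair differences, the members next to the limit of 100 counts, and a list of antisense RNAs fixed with the plan. Of that list TP73-AS1, PSMD6-AS2 and DSG2-AS1 were not members. Other genes were named after their values were seen. Some items that the rule names are not reported here. Layouts came from GENCODE 29 on GRCh38 by Ensembl ID, while the notes name hg19, so the only coordinates given are those of promoter windows, from RefSeq GRCh38.p14. In pair ratios 0.5 CPM was added to each value. Each SE comes from the same test as its p-value, so it too measures only how far these samples spread.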

Additional observations from a re-analysis of the deposited data

How the results depend on the processing

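The number of calls depended on the test and on single libraries more than on scaling or filters. DESeq2 called 3549 genes (1444 higher), 14 antisense RNAs (6 higher, 8 lower), 5 pairs in the same direction and 0 in opposite directions, the cause of which was not tested. With 1 library left out the fits called 3072 to 5201 genes (1303 to 2327 higher, 1769 to 2874 lower), 14 to 34 antisense RNAs (6 to 21 higher, 8 to 18 lower), 58 to 89 partners (28 to 44 higher, 29 to 45 lower), 3 to 12 pairs in the same direction and 0 to 5 in opposite directions, with r of 0.18 to 0.25 and a median pair difference of -0.04 to 0.03. The fewest calls came without shNUP153 replicate 1. With no filter on low counts, which brought in partners with few counts, r was 0.092, with 16 antisense RNAs higher and 14 lower. With a mean of 1 CPM or more, 24 were higher and 14 lower. RLE scaling gave 19 and 15, and total-count scaling, which moved the median of all genes to 0.07, gave 28 and 11. With a sum of 400 counts or more there were 107 members and 41 partners called (22 higher, 19 lower), 3 opposed pairs and r of 0.45. A sum of 50 counts or more gave 357 members, 10.4% of them called, and symbols ending in -AS with any number or none gave 263. Among pairs whose exons do not overlap, 1 was called in the same direction and 1 in opposite directions.

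Same-numbered libraries did not deviate together across genes (correlation -0.004). This cannot show that they are unpaired, since any difference between the hairpin marks g1 and g2 would be part of the deviation. With the replicate number as a block, 5465 genes, 33 antisense RNAs (18 higher, 15 lower), 95 partners, 10 pairs in the same direction and 5 opposed pairs were called, with r of 0.26.

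Single genes were followed over these fits. They were NUP153, the antisense RNAs named by rule or called, their tested partners, and the decay and double-stranded RNA lists. Of their values, 152 lost their call, 17 gained one and 0 were called in the opposite direction. Depth limits the scarce members most, since those between 1 and 2 CPM rest on about 100 to 200 counts in all.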
